A study of Danio rerio with 16 samples.

Results

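The comparison of combined fasting and fluoxetine with the fed control used 8 of the 16 liver arrays of the series, the 4 whose sample titles name Fasted/FLX and the 4 whose titles name Fed. All fish were adult female zebrafish (Danio rerio) held for 7 days with 20 fish per tank. Fasted/FLX fish received no food and 540 ng/L fluoxetine (FLX) in the water, whereas Fed fish received food and 0 ng/L. FLX is a selective serotonin reuptake inhibitor used as an antidepressant. The other 8 arrays, 4 Fasted without FLX and 4 Fed/FLX, entered the shared normalization and the shared estimate of the spread. Each sample pooled the livers of a pair of fish, and each of the 4 treatments occupied 1 tank, so treatment and tank cannot be told apart and p-values measure the spread between samples of a tank. Groups follow the labels of the scanner files. A deposited table of the same scans assigns most of them to other samples, 12 of 16 to another group, and the data do not show which assignment is right, so every comparison rests on the scanner files' labels. Every array carried 14880 spots for 248 miRNAs, with 60 spots per miRNA divided between 2 probes in 224 miRNAs and among more in 24.

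MicroRNAs (miRNAs) are short RNAs that guide a silencing complex to partly complementary sites in messenger RNAs, which lowers translation of the target or shortens its life. Pairing rests mainly on the seed, a short stretch near the 5′ end, so that miRNAs with the same seed form families with shared targets. In liver, miR-122 makes up a large part of the miRNA of hepatocytes and is known in mammals for its role in cholesterol and lipid metabolism, and members of the let-7 family are known in mammals to act on insulin signalling and glucose handling.

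Before normalization the Fasted/FLX arrays were brighter than the Fed arrays. Detection of a miRNA on an array required that 50% or more of its unmarked spots (those not called outliers) passed the scanner's test for lying well above background. By this rule 71, 64, 72 and 77 miRNAs were detected on Fed arrays 1 to 4, and 91, 83, 84 and 92 on Fasted/FLX arrays 1 to 4, so that the groups did not overlap. The means were 71.0 ± 5.35 and 87.5 ± 4.65 (SD, n = 4 each), a difference of 16.5 miRNAs (two-sided exact permutation test, p = 0.0286, which is the smallest p that 4 against 4 arrays allow, and adjusted p = 0.0357 over 5 array measures). Spots well above background made up 28.4% ± 1.40 of miRNA spots in Fed and 33.4% ± 1.42 in Fasted/FLX (SD, n = 4 each, exact p = 0.0286). The summed total gene signal, the scanner software's intensity for each miRNA added over miRNAs, was 71296 ± 6317 in Fed and 107001 ± 13585 in Fasted/FLX (SD, n = 4 each, exact p = 0.0286). The median spot signal, which lay close to 0 on every array, was 0.321 in Fed and 1.03 in Fasted/FLX (exact p = 0.143, n = 4 each). There were 39 miRNAs detected on more Fasted/FLX than Fed arrays and 5 detected on fewer, while 56 were found on all 8 arrays and 142 on none of them.

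**Figure D1:**
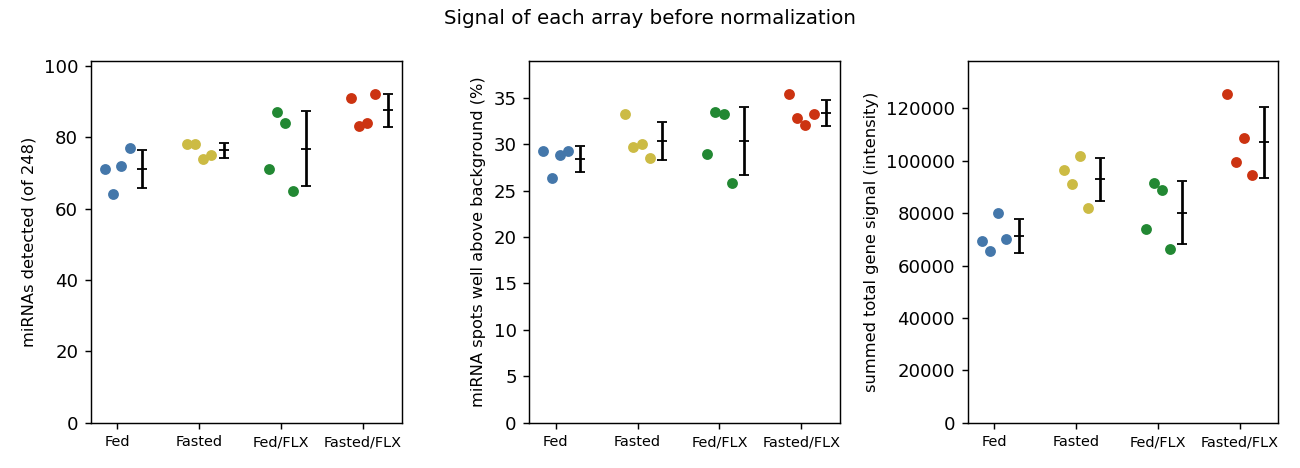
Signal of each array before normalization, with miRNAs detected (left), the percentage of miRNA spots well above background (middle) and summed total gene signal in intensity units (right) for the 4 groups; points are arrays and bars are the mean ± SD of 4. Fasted/FLX arrays held 83 to 92 detected miRNAs and Fed arrays 64 to 77.

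This brightness was spread over most of the detected miRNAs, with an exception among the brightest. Of the 56 miRNAs detected on all 8 arrays, 50 had a higher mean total gene signal in Fasted/FLX, with a median fold of 1.77 over the 56. For 37 of them every Fasted/FLX array was above every Fed array, and for 1, dre-miR-739 (listed with a suffix for an older release), every Fasted/FLX array was below. The total gene signal of dre-miR-739 was 14368, 14421, 15126 and 12832 on Fed arrays 1 to 4 and 11296, 10649, 10682 and 10117 on Fasted/FLX arrays 1 to 4. Its share of the summed signal was 20.0% ± 1.74 in Fed and 10.1% ± 0.814 in Fasted/FLX (SD, n = 4 each). The share of dre-miR-122 was 21.3% ± 0.832 and 23.6% ± 1.19, and that of dre-let-7a was 4.87% ± 0.415 and 6.85% ± 0.530 (SD, n = 4 each). dre-miR-739 and dre-miR-122 thus held close to equal shares in Fed, and dre-miR-122 held the larger share in Fasted/FLX. These 3 were singled out after their values were seen, and the shares, which are of signal and not of molecules, were not tested. Slide columns 2 and 4 held the FLX arrays alone and columns 1 and 3 the arrays without FLX. FLX and slide column therefore cannot be told apart. The summed signal was 96429, 91157, 101686 and 82111 on Fasted arrays 1 to 4, which had no FLX, each above every Fed array. On Fed/FLX arrays 1 to 4 it was 73793, 91378, 88973 and 66463, which overlapped Fed. The part of FLX, fasting or slide column in the brightness was not tested.

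The levels and differences below are RMA values, which the study's methods name, unless total gene signal is named. RMA values are log2 intensities after quantile normalization gave every array the same distribution. A difference is therefore relative to the other miRNAs of the array. On this scale 12 of 248 miRNAs (4.84%) passed an adjusted p of 0.05 in limma, 10 higher (4.03%) and 2 lower (0.806%) in Fasted/FLX. At least 2-fold differences past that threshold numbered 0 (0%) by limma and 0 by the test that the methods name, and 1 (0.403%) at an unadjusted p under 0.05, dre-miR-205. Unadjusted, 40 miRNAs (16.1%) passed, 27 higher (10.9%) and 13 lower (5.24%). The higher miRNAs were 4 members of the let-7 family (dre-let-7c, dre-let-7d, dre-let-7f and dre-let-7g), dre-miR-456, dre-miR-130a, dre-miR-93, dre-miR-16c, dre-miR-26b and dre-miR-128, and the lower ones were dre-miR-2190 and dre-miR-181c. None of the 12 had overlapping groups, which also fixes the sign within each slide, and the probes of each agreed in sign. Among all 248 miRNAs, 29 (11.7%) lay wholly above and 12 (4.84%) wholly below the Fed arrays. A positive difference was found for 130 of 248 miRNAs (52.4%). The median log2 difference was 0.01 over all miRNAs and 0.08 over the 56 detected on all 8 arrays. Without quantile normalization the median of the 56 was 0.72, and 46 miRNAs passed, all of them higher, with 9 of the 12 among them.

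**Figure D2:**
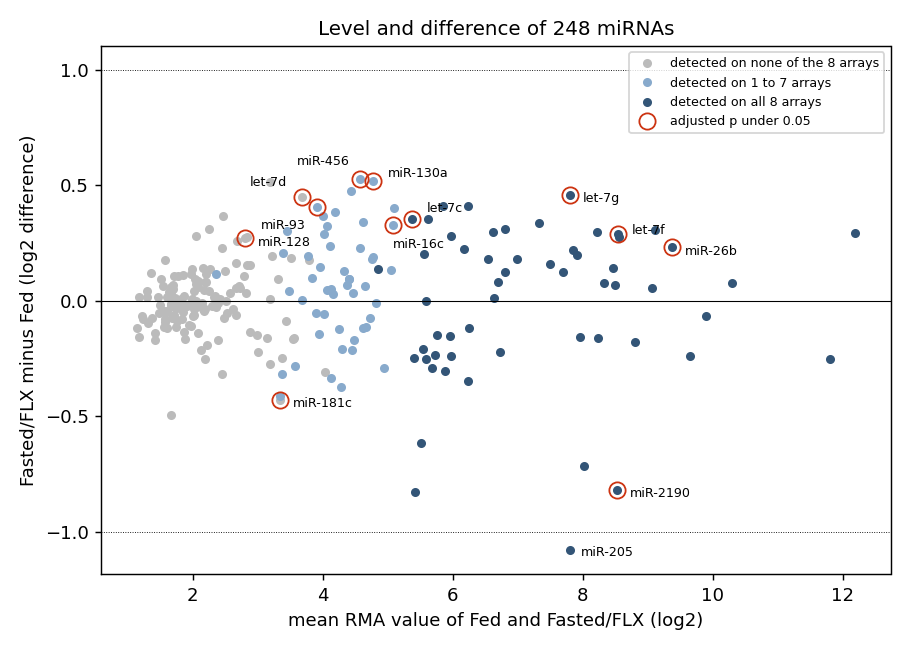
Log2 difference of Fasted/FLX minus Fed against the mean RMA value (log2) for 248 miRNAs, coloured by the number of the 8 arrays on which each was detected, with red rings for the 12 past an adjusted p of 0.05 and dotted lines at 2-fold. The red rings lie between -0.82 and 0.53, and dre-miR-205 at -1.08 lies past 2-fold without passing the test.

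The detection behind the 12 differed. Those detected on all 8 arrays were dre-let-7c, dre-let-7f, dre-let-7g, dre-miR-26b and dre-miR-2190. dre-miR-456 and dre-miR-16c were detected on 3 Fed and 4 Fasted/FLX arrays, dre-miR-130a on 2 and 4, and dre-miR-93 on 1 array of each group. dre-let-7d, dre-miR-181c and dre-miR-128 were not well above background on any of the 8 arrays, so only their log2 differences are given and no fold.

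Most calls depended on how the arrays were scaled. Spot signals were scaled to each array's 75th percentile, over detected miRNAs or over all spots, or total gene signals were scaled likewise, in place of quantile normalization. Scaled values under 1 were then raised to a floor of 1. dre-miR-456 and dre-miR-130a passed under all 3 of these scalings. All 4 let-7 calls ended under all 3, with limma adjusted p values in the order given of 0.125, 0.0603 and 0.0609 for dre-let-7d, 0.164, 0.114 and 0.293 for dre-let-7g, 0.214, 0.114 and 0.507 for dre-let-7c, and 0.142, 0.0793 and 0.218 for dre-let-7f. dre-miR-16c (0.302, 0.163 and 0.565) and dre-miR-93 (0.0670, 0.0683 and 0.0503) were lost under all 3 as well. dre-miR-128 had a difference of exactly 0 under each, which is what the floor gives to a miRNA below it, so these scalings could not test its call. dre-miR-26b was lost with total gene signals (0.360) and dre-miR-2190 with the percentile over all spots (0.0512). dre-miR-181c was at -1.01 and -1.0 and passed with spot signals, and was at 0 with total gene signals, where the floor made the groups equal.

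**Figure D3:**
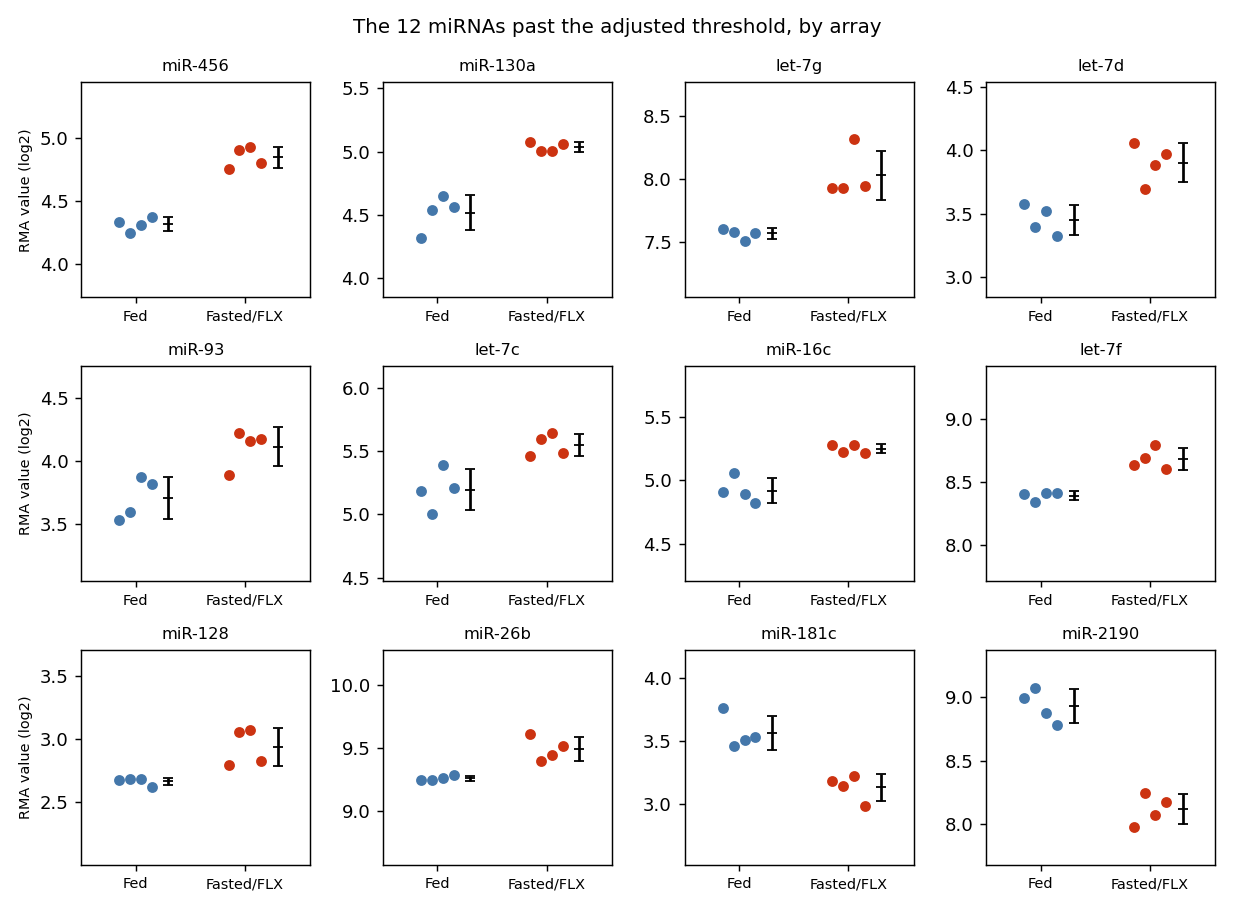
RMA values (log2) of the 12 miRNAs past an adjusted p of 0.05, 1 panel per miRNA with axes of equal span; points are arrays of Fed (blue) and Fasted/FLX (red), and bars are the mean ± SD of 4. The groups do not overlap in any panel, and dre-let-7g has 1 high Fasted/FLX array at 8.32.

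The let-7 family, which in animals promotes differentiation and restrains growth regulators, gave the largest group. Of its 10 members 4 rose, 0 fell and 9 had a positive difference, with a median of 0.24, where over all miRNAs 4.03% rose, 52.4% were positive and the median was 0.01. Most of those miRNAs were detected on none of the 8 arrays. Among the 74 detected on all 4 arrays of either group, 7 rose, 46 were positive and the median was 0.09. All 4 calls ended under the 3 percentile scalings above, with the direction kept. Under both spot scalings the difference was 0.44 for dre-let-7g, 0.38 for dre-let-7c and 0.39 for dre-let-7f. With total gene signals it was 0.26, 0.29 and 0.26 in that order. Without quantile normalization all 4 passed, with differences of 0.71 to 1.03, in a setting where all 46 calls were higher. dre-let-7g was at 7.61, 7.58, 7.51 and 7.58 on Fed arrays 1 to 4 and at 7.92, 7.93, 8.32 and 7.94 on Fasted/FLX arrays 1 to 4. Its Fed arrays lay close together, and 1 Fasted/FLX array stood above the other 3. The log2 difference was 0.46 (SE 0.10), a 1.37-fold rise (limma, adjusted p = 0.0231) that was lost under the 3 percentile scalings. Leaving out Fed array 1, Fed array 3 or Fasted/FLX array 3 gave 0.0516, 0.0592 and 0.0554.

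dre-let-7f was at 8.40, 8.34, 8.41 and 8.41 in Fed and 8.64, 8.69, 8.80 and 8.60 in Fasted/FLX. It rose by 0.29 (SE 0.08, limma adjusted p = 0.0472), a 1.22-fold difference, and its call ended under the 3 percentile scalings, with any 1 of the 8 arrays left out (adjusted p 0.0641 to 0.145), with slide as a block (0.0678) and with the replicate number as a block (0.0808). dre-let-7c, a dimmer member, was at 5.19, 5.0, 5.39 and 5.21 in Fed and 5.46, 5.60, 5.65 and 5.49 in Fasted/FLX. The highest Fed array of dre-let-7c lay just under the lowest Fasted/FLX array. Its difference was 0.35 (SE 0.08, limma adjusted p = 0.0271), and it passed without Fasted/FLX array 1, Fasted/FLX array 4 or Fed array 3 but not without any other array (0.0621 to 0.110) or under the 3 percentile scalings.

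dre-let-7d was at 3.57, 3.39, 3.52 and 3.32 in Fed and 4.06, 3.70, 3.89 and 3.97 in Fasted/FLX, near background throughout. The difference was 0.45 (SE 0.09, limma adjusted p = 0.00941), and it passed with any 1 array left out (adjusted p up to 0.0400). It did not pass under the percentile scalings, where the difference was 1.04 with spot signals scaled either way. With total gene signals it was 4.48, where its Fed values had been raised to the floor of 1. Its probes differed by 0.44 and 0.49. In the scanner software's total gene signal, which is written as 0.1 where the software calls a miRNA not detected, dre-let-7d stood at 0.1 on all 4 Fed arrays and at 47.0, 21.1, 28.4 and 32.1 on Fasted/FLX arrays 1 to 4. That value marks the absence of a measurement, so a ratio to it has no meaning as a fold.

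The remaining 6 members did not pass. dre-let-7a, the brightest, was at 10.19, 10.12, 10.36 and 10.34 in Fed and 10.30, 10.29, 10.41 and 10.31 in Fasted/FLX, with overlapping groups and a difference of 0.08 (95% interval -0.13 to 0.28). Differences were 0.30 for dre-let-7b (adjusted p = 0.145 in limma), 0.18 for dre-let-7e, 0.19 for dre-let-7h, 0.18 for dre-let-7i and -0.06 for dre-let-7j. dre-let-7i turned to -0.028 when total gene signals were scaled by percentile. The summed linear RMA level of the family ran from 1942 to 2179 on Fed arrays and from 2249 to 2529 on Fasted/FLX arrays. let-7 members differ from one another by few bases, and cross-hybridization between their probes was not tested, so the member that carries a signal is uncertain.

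**Figure D4:**
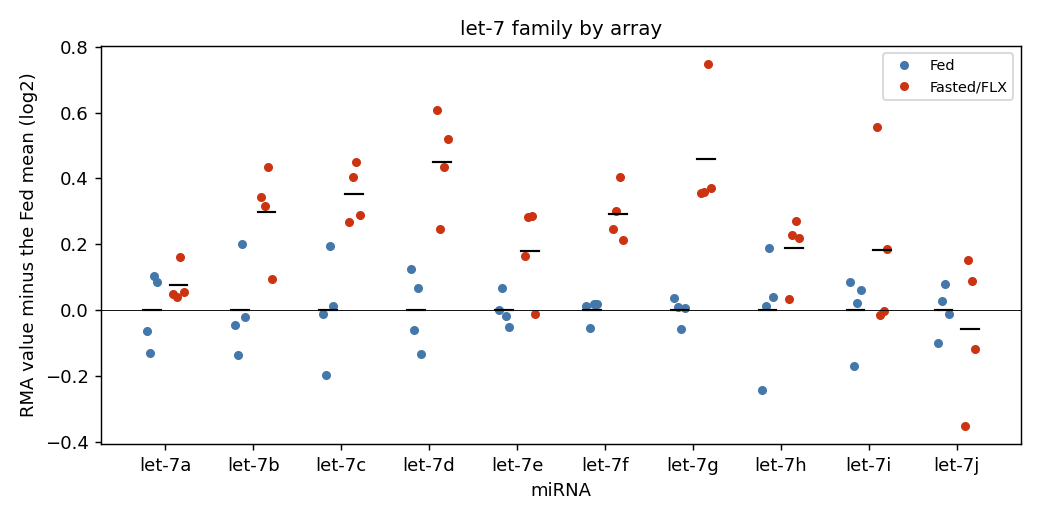
RMA value minus the Fed mean of the same miRNA (log2) for the 10 let-7 members; points are arrays of Fed (blue) and Fasted/FLX (red), and black lines are means of 4. The red points lie wholly above the blue ones for let-7c, let-7d, let-7f and let-7g, and the mean of let-7j lies below at -0.06.

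Of the other higher miRNAs, dre-miR-456 and dre-miR-130a were the firmest. dre-miR-456 was at 4.34, 4.25, 4.31 and 4.37 in Fed and 4.75, 4.90, 4.93 and 4.80 in Fasted/FLX, with a gap between groups wider than the spread within either. It rose 1.44-fold (log2 0.53, SE 0.07, limma adjusted p = 0.000343). dre-miR-130a, a member of a family known in mammals to repress the adipogenic receptor PPARG, was at 4.32, 4.54, 4.65 and 4.56 in Fed and 5.08, 5.0, 5.01 and 5.06 in Fasted/FLX. The Fasted/FLX arrays lay close together, and the rise was 1.43-fold (log2 0.52, SE 0.08, limma adjusted p = 0.000866). Both passed under all 25 alternative settings, among them no adjustment, which any called miRNA passes. Of the 8 members of the miR-130, miR-301 and miR-454 family 1 rose, 0 fell and 6 were positive (median 0.15), against 4.03% and 52.4% of all miRNAs that rose and were positive. dre-miR-130c spread widely, at 5.57, 5.28, 5.53 and 5.39 in Fed and 6.31, 5.42, 5.18 and 6.28 in Fasted/FLX, where 2 arrays stood above all Fed arrays and 1 below all of them.

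dre-miR-16c, of the family that in mammals restrains cell cycle genes, was at 4.91, 5.06, 4.90 and 4.82 in Fed and 5.28, 5.22, 5.28 and 5.21 in Fasted/FLX. The rise was 1.26-fold (log2 0.33, SE 0.08, limma adjusted p = 0.0293), and it passed only without Fed array 2 when each array was left out in turn (0.0641 to 0.110 without any other), and was lost under the 3 percentile scalings. It was the 1 called member of 8 in the miR-15, miR-16 and miR-457 family (median 0.11), where 4.03% of all miRNAs rose. dre-miR-93, a relative of the growth-promoting miR-17 group, was at 3.53, 3.59, 3.87 and 3.82 in Fed and 3.89, 4.22, 4.16 and 4.18 in Fasted/FLX, so that the lowest Fasted/FLX array lay just above the highest Fed array. The difference was 0.41 (SE 0.10, limma adjusted p = 0.0271), and it passed without Fasted/FLX array 1, Fed array 3 or Fed array 4 but not without any other (0.0660 to 0.0880) or under the 3 percentile scalings. Of the 7 members of the miR-17, miR-18, miR-20 and miR-93 family 1 rose, 0 fell and 6 were positive (median 0.16), beside the same 4.03% and 52.4% over all miRNAs.

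dre-miR-26b was at 9.25, 9.25, 9.26 and 9.28 in Fed and 9.61, 9.39, 9.44 and 9.52 in Fasted/FLX. The rise was the smallest of the 12, 1.17-fold (log2 0.23, SE 0.05, limma adjusted p = 0.0231), and it was lost without Fed array 1, 2 or 3 or Fasted/FLX array 1 (0.0549, 0.0531, 0.0561 and 0.0626). Its family member dre-miR-26a went the other way on every Fasted/FLX array, with a difference of -0.18 that did not pass (limma adjusted p = 0.370). dre-miR-128, best known as a neuronal miRNA, was at 2.68, 2.69, 2.68 and 2.62 in Fed and 2.80, 3.06, 3.07 and 2.83 in Fasted/FLX, not well above background on any array. Its difference was 0.27 (SE 0.07, limma adjusted p = 0.0472), and in turn without each array it passed only without Fasted/FLX array 1 or 4 (up to 0.202 without any other). It was 0 under the 3 percentile scalings and without background correction. In those settings a floor of 1 left no difference to test. The call was lost with slide as a block (0.0642).

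dre-miR-2190 was the firmest of the lower miRNAs, at 9.0, 9.08, 8.87 and 8.78 in Fed and 7.97, 8.24, 8.07 and 8.17 in Fasted/FLX. Every Fasted/FLX array lay below every Fed array, by a gap wider than the range within either group. The level was 1.76-fold lower (log2 -0.82, SE 0.13, limma adjusted p = 0.00161), and both probes fell, by 0.88 and 0.79. Its total gene signal before normalization was 1613, 1637, 1662 and 1451 in Fed and 1491, 1534, 1349 and 1350 in Fasted/FLX, so that the unscaled signal was nearly level while that of most detected miRNAs was higher in Fasted/FLX. Without quantile normalization the difference was -0.15 and did not pass (limma adjusted p = 0.553), nor did it with the percentile over all spots (-0.78, adjusted p = 0.0512).

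dre-miR-181c, of a family known in mammals from lymphocyte and vascular biology, was at 3.76, 3.46, 3.51 and 3.53 in Fed and 3.18, 3.15, 3.22 and 2.98 in Fasted/FLX. The difference was -0.43 (SE 0.10, limma adjusted p = 0.0231), without a detected level on any array, and it was lost without Fed array 1 or Fasted/FLX array 4 (0.0649 and 0.0669). It was also lost with total gene signals (0), without quantile normalization (-0.27, adjusted p = 0.304) and with a background offset of 50 (-0.074, adjusted p = 0.0644), and was at -1.01 and -1.0 with percentile-scaled spot signals. The 0 with total gene signals came from the floor of 1, which made the groups equal. dre-miR-181a-5p, the detected member of the family, was at 6.52, 6.14, 6.0 and 5.71 in Fed and 5.74, 5.96, 6.08 and 5.63 in Fasted/FLX. Its groups overlapped, with a difference of -0.24 that did not pass (limma adjusted p = 0.478).

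The largest difference in size did not pass the test. dre-miR-205, a miRNA of epithelial cells, was at 8.35, 8.51, 7.94 and 8.55 in Fed and 7.95, 6.86, 7.20 and 7.02 in Fasted/FLX. Fasted/FLX array 1 reached the level of the lowest Fed array, and the other 3 lay below all Fed arrays. The difference was -1.08 (SE 0.34, 95% interval -1.81 to -0.35, limma adjusted p = 0.113). It passed under 3 of 25 alternative settings, among them no adjustment.

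dre-miR-21, known in mammals to rise in liver injury and growth, was at 8.18, 7.78, 9.37 and 8.19 in Fed and 7.49, 7.69, 7.53 and 7.95 in Fasted/FLX. dre-miR-146a, which in mammals is induced by inflammatory signals, was at 5.25, 4.95, 7.25 and 5.85 in Fed and 4.98, 5.43, 4.70 and 4.89 in Fasted/FLX. Fed array 3 was the high array in both. The differences were -0.72 (limma adjusted p = 0.218) and -0.83 (limma adjusted p = 0.491), and they lay at -0.38 and -0.36 without Fed array 3. dre-miR-216a, a miRNA of the exocrine pancreas, was at 5.71, 6.31, 5.53 and 5.73 in Fed and 5.29, 4.61, 5.32 and 5.59 in Fasted/FLX, with 1 Fasted/FLX array inside the Fed range. Its difference was -0.62 (limma adjusted p = 0.322). dre-miR-145, dre-miR-223 and dre-miR-144 had differences of -0.35, -0.31 and -0.29 and did not pass.

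Among higher values that did not pass, dre-miR-139 was at 4.19, 4.08, 4.35 and 4.2 in Fed and 5.07, 4.49, 4.61 and 4.54 in Fasted/FLX. It was detected on 4 Fasted/FLX arrays and 0 Fed arrays (difference 0.47, SE 0.17, limma adjusted p = 0.197). Its mean was at least 1.36-fold higher against, per Fed array, the higher of the dimmest detected level and its own value. This bound compares means and leaves out the spread between arrays. dre-miR-25 was at 6.01, 6.09, 6.06 and 5.98 in Fed and 6.26, 6.49, 6.44 and 6.58 in Fasted/FLX, without overlap (difference 0.41, limma adjusted p = 0.120). dre-miR-101b had a difference of 0.41 and dre-miR-130c of 0.36, with overlapping groups.

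The brightest liver miRNAs did not pass on the RMA scale. dre-miR-122 was at 12.04, 12.03, 12.14 and 11.92 in Fed and at 12.32, 12.33, 12.33 and 12.33 in Fasted/FLX. dre-miR-739 was at 11.98, 11.89, 11.90 and 11.95 in Fed and at 11.69, 11.67, 11.67 and 11.69 in Fasted/FLX. Neither had overlapping groups, and the differences were 0.29 (limma adjusted p = 0.324) and -0.25 (limma adjusted p = 0.325). Quantile normalization fixes the highest values of each array, which holds the values of these miRNAs nearly equal across the Fasted/FLX arrays. dre-miR-739 was at -1.03 with percentile-scaled spot signals (limma adjusted p = 0.0402 over detected miRNAs and 0.0516 over all spots) and at -1.21 with scaled total gene signals (adjusted p = 0.00932), a difference of over 2-fold in each. dre-miR-122 was at 0.09 under the spot scalings and at -0.077 with scaled total gene signals, and at 0.72 without quantile normalization (adjusted p = 0.00933). With only the Fed and Fasted/FLX arrays in the fit both passed (0.0275 each). dre-miR-22a had a difference of -0.06 with overlapping groups, and turned positive under 4 alternative scalings. dre-miR-192, a miRNA of liver and gut epithelium, was at 9.64, 9.89, 9.75 and 9.80 in Fed and 9.55, 9.52, 9.62 and 9.44 in Fasted/FLX, lower on every array (difference -0.24, limma adjusted p = 0.411), and was at 0.52 without quantile normalization.

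Among 6 hepatocyte miRNAs, which check the labelled tissue, 5 were detected on all 8 arrays and none passed. Over all 248 miRNAs 4.84% passed, so a count of 0 in this or a later list does not set that list apart. Differences were positive for 3 (median -0.02). Of the 6, 1 lay wholly higher and 2 wholly lower in Fasted/FLX, beside 11.7% and 4.84% of all miRNAs. The summed level was 5182 to 5799 in Fed and 6234 to 6358 in Fasted/FLX, where dre-miR-122 made the largest part. The sum over all 248 miRNAs did not overlap either, at 21809 to 22117 in Fed and 22229 to 22446 in Fasted/FLX. Under the 3 percentile scalings dre-miR-122 differed by 0.09, 0.09 and -0.077. In bulk tissue, fewer cells of a type and less RNA per cell cannot be told apart. Of 10 blood and immune miRNAs none passed (summed level 664 to 981 in Fed and 762 to 1072 in Fasted/FLX), and of 9 endothelial and mesenchymal miRNAs none passed (674 to 788 and 770 to 826). Of 14 miRNAs of epithelial ducts and pancreas none passed (480 to 648 and 321 to 558), where dre-miR-205 made the largest part and dre-miR-375, of islet cells, was not well above background on any of the 8 arrays. Of 8 muscle miRNAs none passed (39.3 to 94.6 and 38.9 to 52.4), with dre-miR-1 and dre-miR-206 not well above background. The 7 ovary and egg miRNAs were not detected on any of these arrays, and none passed (30.7 to 34.1 and 30.1 to 33.9). The 7 brain miRNAs were not detected either (29.4 to 30.1 and 28.8 to 32.4), dre-miR-128 being the called member. The part of other cell types in the 12 differences was not tested.

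Further families were described by their counts, to be read against 4.84% passed, 52.4% positive and 11.7% wholly higher over all 248 miRNAs. All 6 members of the miR-10, miR-99 and miR-100 family were positive (median 0.14) and 0 passed, with dre-miR-99 and dre-miR-100 each at 0.34 without overlap. The pair of miR-101 members were positive (median 0.36, 0 passed), and 1 of 5 members of the miR-30 family was positive (median -0.15, 0 passed). In the miR-19 family 1 of 4 was positive (median -0.12, 0 passed), and in the miR-25, miR-92 and miR-363 family 3 of 4 were (median 0.22, 0 passed). The miR-125 family had 3 of 3 positive (median 0.12), the miR-103 and miR-107 family 3 of 3 (median 0.07), the miR-23, miR-24 and miR-27 clusters 5 of 8 (median 0.05) and the miR-221 and miR-222 family 2 of 3 (median 0.05), and 0 members passed in each.

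The study named 13 miRNAs, a list chosen on these samples and so not independent evidence of a direction. The list spans all of the study's treatments at a 2-fold rule. For Fasted/FLX the study lists dre-let-7d, dre-miR-22b, dre-miR-140-5p, dre-miR-193a, dre-miR-301a and dre-miR-457b as higher and dre-miR-205 as lower. It lists dre-miR-181c and dre-let-7i as higher in Fed/FLX only, dre-miR-19a-3p as lower in Fed/FLX only and dre-miR-103 as higher in Fasted only. Its qPCR of the higher miRNAs correlated with its array values. That qPCR has a primer for dre-miR-210-5p, which the study's text does not assign to a treatment by name. For dre-miR-739 that text gives neither a direction nor a treatment. Of the 13, 1 rose (dre-let-7d), 1 fell (dre-miR-181c) and 11 did not pass, where 4.84% of all miRNAs passed. dre-miR-22b was at 3.87, 3.85, 4.04 and 3.87 in Fed and 4.14, 4.34, 4.28 and 4.17 in Fasted/FLX, without overlap, and was detected on 0 Fed and 4 Fasted/FLX arrays. Its mean level was at least 1.1-fold higher (difference 0.32, SE 0.10, limma adjusted p = 0.119). dre-miR-140-5p was at 3.73, 4.02, 3.98 and 3.78 in Fed and 4.26, 4.26, 4.13 and 4.03 in Fasted/FLX, and was detected on 2 Fasted/FLX arrays. Its mean was at least 1.06-fold higher (difference 0.29, SE 0.16, limma adjusted p = 0.370). Both bounds compare means and leave out the spread between arrays. Differences were 0.30 for dre-miR-210-5p, 0.21 for dre-miR-301a, 0.18 for dre-miR-457b, 0.18 for dre-let-7i and 0.07 for dre-miR-103, and -0.16 for dre-miR-193a and -0.12 for dre-miR-19a-3p, all with overlapping groups. Over all 248 miRNAs the total gene signal stood at 0.1 on every Fed array and on no Fasted/FLX array for 4 miRNAs, all of them in the list, and the reverse held for 0. Beside dre-let-7d these were dre-miR-457b (22.4 to 34.9 on the Fasted/FLX arrays), dre-miR-301a (17.5 to 38.8) and dre-miR-140-5p (43.0 to 72.8).

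The single treatments share the Fed arrays with the combined one, so the values stand side by side without a measure of overlap. Against Fed, limma passed 0 miRNAs under fasting alone (0% of 248, and 29 or 11.7% at an unadjusted p under 0.05) and 32 under FLX alone (12.9%). dre-miR-456 differed by 0.05 with fasting, 0.53 with FLX and 0.53 with the combination. dre-miR-130a differed by 0.33, 0.35 and 0.52 in the same order, dre-let-7g by 0.24, 0.64 and 0.46, and dre-let-7d by 0.21, 0.43 and 0.45. dre-miR-16c differed by 0.05, 0.37 and 0.33, and dre-let-7f by 0.10, 0.31 and 0.29. dre-let-7c differed by 0.30, 0.40 and 0.35, dre-miR-93 by 0.34, 0.25 and 0.41, dre-miR-26b by 0.17, 0.15 and 0.23, and dre-miR-128 by 0.16, 0.30 and 0.27. dre-miR-2190 differed by -0.16, -0.39 and -0.82, the largest size in the combined treatment. dre-miR-181c differed by 0.24, 0.24 and -0.43, and so changed sign in the combined treatment. For dre-miR-205 the values were -0.62, -1.74 and -1.08.

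**Figure D5:**
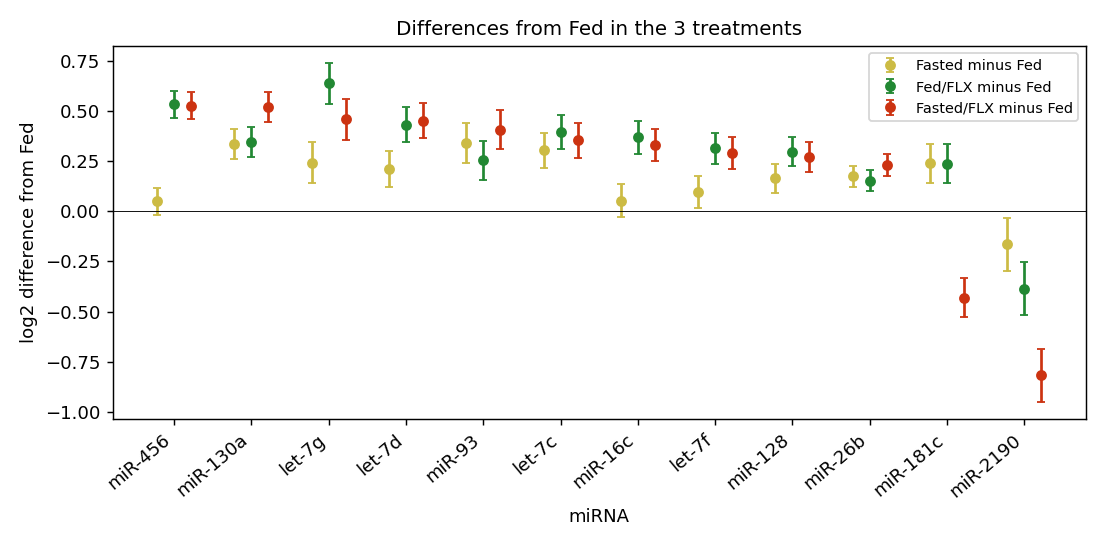
Log2 difference from Fed of the 12 miRNAs under each of the 3 treatments, ± SE from the limma fit over 16 arrays, 4 per group. For miR-181c the single treatments lie at 0.24 each and Fasted/FLX at -0.43, and miR-2190 lies lowest in Fasted/FLX at -0.82.

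The interaction of FLX and fasting tested whether the combined difference departed from the sum of the single ones. It passed for 4 of 248 miRNAs (1.61%, limma, Benjamini-Hochberg over all miRNAs), dre-miR-181c and dre-miR-181a-5p below the sum and dre-miR-29a and dre-miR-29b above it. All but dre-miR-181c are named because the count is small, after their values were seen. For dre-miR-181c the interaction was -0.91 (SE 0.14, adjusted p = 0.00274), with Fasted arrays at 3.59, 3.75, 4.03 and 3.85 and Fed/FLX arrays at 3.90, 3.68, 3.71 and 3.91 beside the Fed and Fasted/FLX values given above. All Fasted/FLX arrays lay below all arrays of the other 3 groups. dre-miR-181c was not well above background on any Fed or Fasted/FLX array. Its interaction ran from -6.62 with scaled total gene signals, which have a floor of 1, to -0.18 with a background offset of 50. For dre-miR-181a-5p it was -1.23 (SE 0.22, adjusted p = 0.00607), with Fasted at 6.56, 6.46, 6.51 and 6.56 and Fed/FLX at 6.95, 6.44, 6.70 and 6.52. Here each single treatment had a higher mean than Fed (0.43 and 0.56) and the combined one a lower mean (-0.24).

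The miR-29 family, which in mammals represses collagens and other matrix genes, showed the opposite order. dre-miR-29a was at 7.96, 8.12, 8.27 and 7.93 in Fed, 7.78, 7.83, 7.99 and 7.70 in Fasted, 7.42, 8.11, 7.85 and 7.65 in Fed/FLX and 8.57, 8.34, 8.29 and 8.28 in Fasted/FLX. The Fasted/FLX arrays were the highest of the 16, while both single treatments had means below Fed (-0.25 and -0.32 against 0.30 in Fasted/FLX). The interaction was 0.86 (SE 0.18, limma adjusted p = 0.0192). dre-miR-29b differed from Fed by -0.31, -0.50 and 0.22 with fasting, FLX and the combination, with an interaction of 1.04 (SE 0.21, limma adjusted p = 0.0175), and was detected on 1 of 4 Fed/FLX arrays and on all others. Neither member differed from Fed past the threshold in Fasted/FLX. No interaction of the 4 passed without quantile normalization (adjusted p 0.0818 to 0.208, with the directions kept), that of dre-miR-29b was lost with percentile-scaled total gene signals (0.0698), and that of dre-miR-29a was lost without Fasted array 1, Fasted array 4 or Fasted/FLX array 1 (0.0573, 0.0596 and 0.0595). For each of the called higher miRNAs the combined difference was smaller than the sum of the single ones, and none of their interactions passed. For dre-let-7g and dre-let-7c the interactions were -0.42 and -0.35 (limma adjusted p = 0.229 for each).

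Neighbouring miRNA genes were taken from the RefSeq table of the zebrafish assembly GRCz12tu, in which 241 of the 248 names matched, with a window of 10000 bases. dre-let-7f lies beside dre-let-7a (differences 0.29 and 0.08), and dre-let-7g beside dre-let-7h (0.46 and 0.19). dre-let-7c lies beside dre-miR-99 and dre-miR-125c (0.35, 0.34 and 0.14), and dre-miR-93 beside dre-miR-25 and dre-miR-19d (0.41, 0.41 and -0.12). dre-miR-130a lies beside dre-miR-301a and dre-miR-454a (0.52, 0.21 and 0.07), and dre-miR-181c beside dre-miR-181a (-0.43, and -0.24 for its 5p arm). dre-miR-16c lies beside dre-miR-15a (0.33, and -0.11 for its 5p arm). dre-let-7d, dre-miR-128, dre-miR-26b and dre-miR-456 had no neighbour of the array within the window, and dre-miR-2190 was not matched. Of the neighbours named here that are not themselves among the 12, none passed the test.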

How the data were processed

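The authors labelled liver RNA with Cy3 and hybridized each sample to 1 custom Agilent array. They deposited the output of Agilent Feature Extraction 11.0.1.1 (named in the submitters' processing notes), with a background-subtracted intensity per spot and no normalization between arrays. The deposited table of log2 values for 166 miRNAs was not used, since 14 of its 16 columns matched another sample's scan, 12 of another group. The match was within 7.24e-06 after subtraction of a constant per column of 9.41 to 10.50 log2 units. Groups follow the scanner files' labels, and the data do not show which assignment is right.

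RMA values were computed over 16 arrays with limma 3.58.1 on R 4.3.3. The steps were the normal-exponential background model on all spots, removal of control and outlier spots, quantile normalization, log2, and median polish with up to 20 iterations. No spot on the 8 arrays was saturated, and no miRNA was filtered out. limma (lmFit and eBayes, 1 mean per group, Benjamini-Hochberg over 248 miRNAs) gave the tests, and exact permutation those of array measures. Precision is limited by 4 arrays per group. The steps were tried on the real spot signals, with arrays dealt to mixed groups and known changes put into miRNAs detected on all 16 arrays. That trial covered neither undetected miRNAs nor changes under 2-fold. Figures were drawn with matplotlib 3.10.9.

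Named miRNAs are those past the adjusted threshold, the 8 highest and 8 lowest differences among miRNAs with detection throughout Fed or Fasted/FLX, the 13 that the study names, the 5 with the highest values in Fed and dre-miR-122; others are family members, marker miRNAs or neighbours. A lower bound of a fold sets the brighter group's mean against, per array of the other group, the higher of the dimmest detected miRNA and the miRNA's own value. It compares means and leaves out the spread between arrays. The members and lists were chosen with earlier results of these data known. Mature sequences and seed groups were not used here.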

Additional observations from a re-analysis of the deposited data

Results flagged for a closer look

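In groups of 4 arrays, an array was singled out by its gap to the nearest other array, divided by the range of the 4. That ratio had to pass Dixon's 95% critical value, so a small gap can pass where the other arrays lie close together. This occurred in 8 of 84 groups of values, and chance alone gives about 1 in 20. On the Fasted/FLX side, dre-let-7g stood at 8.32 on array 3 (others 7.92 to 7.94), dre-let-7a at 10.41 on array 3 (others 10.29 to 10.31) and dre-miR-301a at 3.73 on array 1 (others 3.38 to 3.42). On the Fed side, dre-let-7f stood at 8.34 on array 2 (others 8.40 to 8.41), dre-miR-457b at 3.15 on array 2 (others 3.48 to 3.53), dre-miR-128 at 2.62 on array 4 (others 2.68 to 2.69) and dre-miR-22b at 4.04 on array 3 (others 3.85 to 3.87). Fed array 2 also had the lowest share of spots above background, 26.3%, against 28.8% to 29.3% on the others.

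The difference between fasted and fed arrays was not the same with and without FLX, by the interaction in limma, for 4 miRNAs. These were dre-miR-181c (-0.91), dre-miR-181a-5p (-1.23), dre-miR-29a (0.86) and dre-miR-29b (1.04). Each group was 1 tank, so tank cannot be told apart from treatment here. None of the 4 passed without quantile normalization (limma adjusted p 0.0818 to 0.208). dre-miR-181c was not well above background on any Fed or Fasted/FLX array.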

How the results depend on the processing

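Against 12 calls, the count was 6 and 4 after scaling spot signals to the 75th percentile of detected miRNAs and of all spots, 5 with total gene signals scaled likewise, 46 without quantile normalization, 5 with another variance model, 40 with no adjustment, and 4 to 9 with 1 array left out (4 without Fed array 1, 6 without Fasted/FLX array 3, 7 without Fed array 2 or Fed array 3). The split was 3 higher and 3 lower, 3 and 1, 2 and 3, and 46 and 0 under the 4 scalings in that order, and the cause was not tested. The 3 percentile scalings also left out the background model. With quantile normalization kept and that model left out, 11 of the 12 passed. Against 0 calls of at least 2-fold, the 4 scalings gave 2, 1, 1 and 3. The count was 1 with no background correction, with only 2 groups in the fit, with RMA values from the 8 arrays alone (added after the data were seen) and with no adjustment. dre-miR-2190 passed under 23 of 25 settings (not without quantile normalization or with the percentile over all spots), and dre-let-7d under 21 of 24 (not under the 3 percentile scalings). These settings include no adjustment, which any called miRNA passes. The methods' test called 17, or 12 after Benjamini-Hochberg, with 0 of at least 2-fold in each.

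Replicate numbers do not pair these groups, since the correlation of deviations of same-numbered arrays ran from -0.38 to 0.09 and 0 of 4 matched its own number best. With the replicate block 14 miRNAs passed, 11 of the 12 among them.

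Directions turned for dre-miR-22a with spot signals scaled over detected miRNAs (0.20) or over all spots (0.20), with scaled total gene signals (0.053) and without quantile normalization (0.82). With scaled total gene signals dre-let-7i was at -0.028, dre-miR-122 at -0.077 and dre-miR-193a at 3.01 (SE 1.08, limma adjusted p = 0.218). Low values were raised to the floor of 1 there, so the 3.01 is not to be read as a fold. Without quantile normalization dre-miR-144 was at 0.21, dre-miR-145 at 0.22, dre-miR-192 at 0.52, dre-miR-193a at 0.048, dre-miR-19a-3p at 0.45 and dre-miR-223 at 0.15. With each array left out, dre-miR-103 ran from -0.036 (without Fed array 1) to 0.18 and dre-miR-19a-3p from -0.27 to 0.036 (without Fed array 4), with 0.015 without Fasted/FLX array 4. The differences in detected miRNAs (14.2 to 18.5) and in spots above background (4.25 to 5.37 percentage points) are ranges with each array left out, in which the groups still did not overlap and the exact p was the smallest possible. Signals not well above background limit dre-let-7d, dre-miR-181c and dre-miR-128.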
